A study of Danio rerio with 13 samples.

Results

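The Hippo pathway effectors described here are 10 zebrafish genes: the transcriptional coactivators yap1 and wwtr1, their DNA-binding partners tead1a, tead1b, tead3a and tead3b, the kinases lats1 and lats2, and the target genes ctgfa and cyr61. Members were every promoter window carrying one of these 10 symbols, whatever its values, which gave 19 of 42037 windows and 10 of 24438 gene IDs, with all 10 symbols found. The 10 genes themselves were chosen with earlier results of these data known. Promoter chromatin was profiled by chromatin immunoprecipitation and sequencing of H3K4me3, a mark of active promoters, and H3K27me3, the mark laid down by the Polycomb repressive complex at silenced promoters. For each mark, 3 libraries came from TuAB hearts taken 5 days after the ventricular apex had been resected, and 3 from uninjured TuAB hearts. All fish were 1 to 1.5 years old, and all libraries were made from the apical part of the ventricle, dissociated and strained on a 10 micrometre mesh that keeps cardiomyocytes and lets smaller cells pass. No transgene or drug is named for either condition, and the sources used here do not say whether animals were pooled for a library.

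In the Hippo pathway, the LATS kinases phosphorylate the coactivators YAP and TAZ, which keeps them out of the nucleus. When the kinases are inactive, YAP (yap1) and TAZ (wwtr1) enter the nucleus and bind TEAD factors, through which they switch on genes of growth and of the extracellular matrix, among them those encoding the matricellular proteins Ctgf and Cyr61. The pathway is best known for limiting organ size, and in mouse hearts it restrains the division of cardiomyocytes. Because YAP and TAZ are controlled mainly as proteins, promoter marks of their genes do not measure their activity. The symbol taz, which 6 windows of the tables carry, belongs to tafazzin, a mitochondrial enzyme gene, and was not taken for TAZ.

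The tables analysed here hold no value per library or per condition. They give the authors' mean normalised count of each window, which by DESeq2's usual output covers the libraries compared although no source used here says so, and the comparison of resected with uninjured hearts as a log2 fold change with its standard error (SE), a Wald statistic (the change divided by its SE), a p-value and an adjusted p-value. The size of a change is therefore set against its SE only, as the spread between libraries at a window is not given. A change was called at an adjusted p under 0.05. The p-values rest on 3 libraries per condition, described by the submitters as biological replicates, and fewer cells of a type and less of a mark per cell cannot be told apart. The H3K4me3 changes look shrunken towards 0 by a prior, since their SEs stop at a ceiling, and undoing that prior would multiply those of the windows with an adjusted p by 1.15 to 1.41, while the Wald statistics and p-values would stay as they are.

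Levels come first. All 10 genes stood above the median of all windows for H3K4me3 (82.9) at their best window, and 3 of the 10 (ctgfa, tead1b and lats2) stood above the median for H3K27me3 (56.1). Of these, lats2 was close to it, at 56.9, and below the median of all genes at their window of highest H3K4me3 (57.0). These are the authors' means, taken as covering both conditions, in normalised counts over windows of 4000 bases each. Window width is thus the same for the 10 genes, but the input DNA sample was not used here to set a background. No spread over libraries comes with a level, and which neighbours in the order differ beyond it was not tested.

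The coactivator genes had strong H3K4me3. The authors' mean at yap1, on the minus strand of chromosome 18 (window 37372659 to 37376658), was 626 for H3K4me3, above 98.6% of all windows, and 47.0 for H3K27me3. Its paralogue wwtr1, on chromosome 22, has a pair of windows whose centres lie 174 bases apart, with authors' means of 445 at each for H3K4me3, and 33.4 and 34.0 for H3K27me3. Both genes thus lay high for the active mark, and wwtr1 had the lowest H3K27me3 of the 10 at these best windows, above only 9.41% of all windows. The build of the coordinates is not stated: the submitters' processing notes name danRer7, GRCz10 and danRer10 without saying which gave the windows.

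The TEAD genes, which encode the factors that carry YAP and TAZ to DNA, covered a wide range of levels. The highest H3K4me3 was at the first of the tead1b windows, on chromosome 7 at 65530409 to 65534408, with an authors' mean of 466. A window of the clone-named gene FP016235.1 overlaps it, so that signal cannot be assigned to one gene, and it is the only member window with such an overlap. The second tead1b window lies 120279 bases away (65650688 to 65654687) and had an authors' mean of 18.5, above only 1.25% of all windows, beside 32.7 for H3K27me3. One of the annotated tead1b promoters thus had high counts of H3K4me3 and the other low counts of both marks. At tead3b the authors' means were 331 to 332 over 3 windows, at tead1a 282 to 285 over 3 windows, and tead3a had 131 at its single window, the lowest best window of the 10. For H3K27me3 the means of tead1a, tead3a and tead3b were alike, from 44.6 to 46.6.

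Of the kinase genes, which encode the enzymes that inactivate YAP and TAZ, lats2 had authors' means of 511 to 513 for H3K4me3 over its 3 windows, and lats1 had 250 at each of its 2 windows. The authors' means for H3K27me3 were 55.8 to 57.3 at lats2 and 37.1 at lats1. Both target genes have 1 window each. The authors' mean for H3K4me3 was 297 at cyr61, on chromosome 23, and 159 at ctgfa, on chromosome 20. For H3K27me3 ctgfa had the highest level of the 10, with an authors' mean of 63.8, above 64.3% of all windows, and cyr61 had 38.5.

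**Figure D1:**
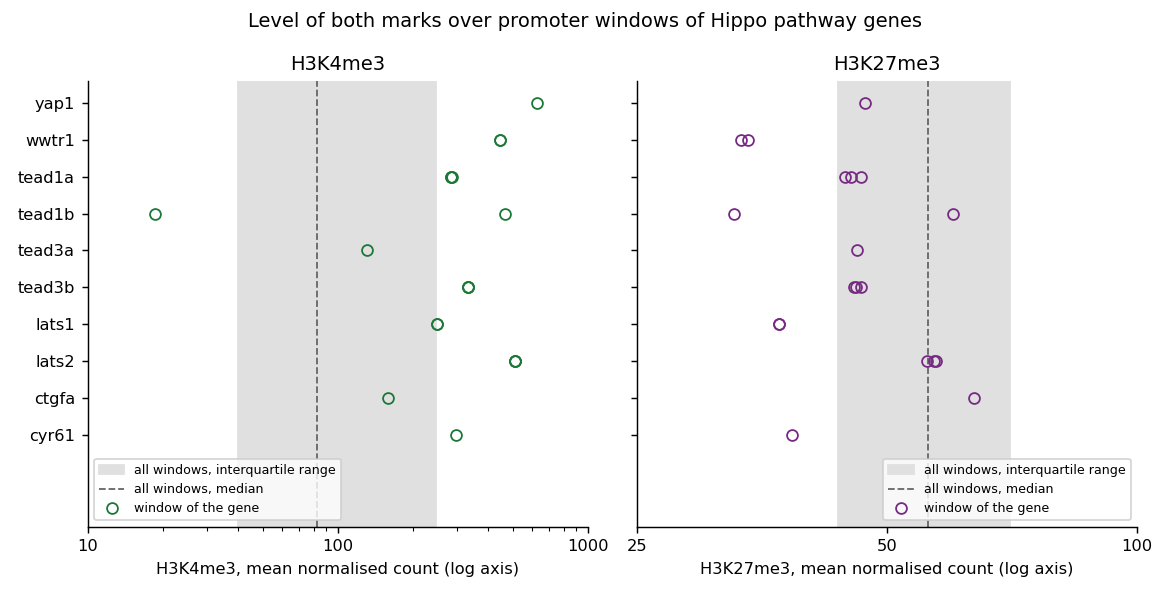
Authors' mean normalised count of H3K4me3 (left) and H3K27me3 (right) over each promoter window of the 10 genes, on log axes, with the median and the interquartile range of all 42037 windows in grey. For H3K4me3 every gene has a window right of the median of 82.9 and the distal tead1b window lies far left at 18.5, while for H3K27me3 all windows lie between 32.7 and 63.8.

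No window of the 10 genes passed the test after resection, for either mark. For H3K4me3, 0 of 19 windows were called in the authors' deposited table, which is in DESeq2's format and where 3.04% of the 24913 windows with an adjusted p were called. The count at an unadjusted p under 0.05 was 4 windows of 2 genes, the 3 windows of tead3b (below 0) and that of ctgfa (above 0). Over all windows that share was 8.47%, with 4.64% below 0 and 3.83% above. By gene, at the window of highest H3K4me3, 1 of the 10 lay below 0 and 1 above at that threshold, beside 8.87% of all genes in either direction. The windows of wwtr1, tead1a, tead3b, lats1 and lats2 have centres within 6 to 174 bases of one another in each gene. The 19 windows are therefore not 19 separate measurements. For H3K27me3, 0 of 19 windows passed, as did 0% of the 41673 windows with an adjusted p, and at an unadjusted p under 0.05 the count was also 0, against 3.14% of all windows. The smallest adjusted p of a member in the authors' deposited tables was 0.277 for H3K4me3, and all were 0.9999 for H3K27me3. The smallest Wald statistic that was called anywhere for H3K4me3 was 3.18 in size, and the largest among the 10 genes was 2.30.

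The coactivator genes lay below 0 for both marks. For yap1 the authors' deposited table gives an H3K4me3 log2 fold change of -0.33 (SE 0.22, adjusted p = 0.706), a resected to uninjured ratio of 0.797 with a 95% interval of 0.587 to 1.08. At the wwtr1 window with the higher H3K4me3, the authors' deposited table gives -0.40 (SE 0.22, adjusted p = 0.525), a ratio of 0.759 (0.562 to 1.03). Neither passed the test, and neither interval of the shrunken ratio reaches above 1.08. For H3K27me3 the authors' deposited table gives -0.35 (SE 0.46, unadjusted p = 0.450) at yap1 and -0.64 (SE 0.53, unadjusted p = 0.228) at that wwtr1 window. These intervals are wider, with ratios of 0.421 to 1.47 at yap1 and 0.312 to 1.32 at wwtr1.

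All 4 TEAD genes lay below 0 for H3K4me3, and tead1a, tead3a and tead3b lay above 0 for H3K27me3. The window of tead3b with the highest H3K4me3 (chromosome 6, 54566446 to 54570445) had a log2 fold change of -0.52 (SE 0.23, unadjusted p = 0.0238, adjusted p = 0.294) in the authors' deposited table. Its ratio was 0.695 (95% interval 0.507 to 0.953), which does not reach 1 before adjustment for the number of windows. The 3 tead3b windows have their centres within 59 bases, share nearly all their sequence and count as 1 measurement. In the same window H3K27me3 had a log2 fold change of 0.77 (SE 0.44, unadjusted p = 0.0792) in the authors' deposited table, a ratio of 1.71 (0.939 to 3.11).

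Values at tead1a were close to those of tead3b. At its window of highest H3K4me3 the authors' deposited table gives -0.43 (SE 0.25, adjusted p = 0.552) for H3K4me3 and 0.69 (SE 0.46, unadjusted p = 0.137) for H3K27me3. Its other windows had -0.44 and -0.45 for H3K4me3, and 0.76 and 0.70 for H3K27me3, in the authors' deposited tables. At tead3a both values were smaller in the authors' deposited tables, -0.20 for H3K4me3 (SE 0.27, adjusted p = 0.941) and 0.23 for H3K27me3 (SE 0.45, unadjusted p = 0.610). None of these passed, and whether the TEAD genes differ from one another was not tested.

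The 2 promoters of tead1b lay on opposite sides of 0 for H3K27me3, and neither value passed. The H3K4me3-rich window had -0.35 for H3K4me3 (SE 0.22, adjusted p = 0.620) and -0.22 for H3K27me3 (SE 0.44, unadjusted p = 0.616) in the authors' deposited tables. At the distal window the authors' deposited tables give -0.18 for H3K4me3 (SE 0.29, unadjusted p = 0.537, no adjusted p because its mean is below 51.8) and 0.96 for H3K27me3 (SE 0.53, unadjusted p = 0.0675). That 0.96 is the largest H3K27me3 value in size among the 19 windows, a ratio of 1.95 with an interval of 0.953 to 3.99, at the window with the lowest H3K27me3 mean of the 19.

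At the best window of each gene, the kinase genes had the smallest H3K4me3 values in size. In the authors' deposited table lats1 had a log2 fold change of 0.17 at both windows (SE 0.23, adjusted p = 0.936), and lats2 had -0.16 at each of its 3 windows (SE 0.20, adjusted p 0.928 to 0.933). The 95% intervals of the ratio at their best windows were 0.830 to 1.53 for lats1 and 0.677 to 1.18 for lats2, whose SE was the lowest of the 10 genes. For H3K27me3 the authors' deposited table gives 0.39 and 0.40 at lats1 (SE 0.50) and -0.41 to -0.36 at lats2 (SE 0.46), with unadjusted p-values from 0.370 to 0.434.

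The target genes lay on opposite sides of 0 for H3K4me3. For ctgfa, whose product is a matricellular growth factor, the authors' deposited table gives a log2 fold change of 0.55 (SE 0.26, unadjusted p = 0.0328, adjusted p = 0.350), a ratio of 1.46 (95% interval 1.03 to 2.07). For cyr61 it was -0.49 (SE 0.26, unadjusted p = 0.0555, adjusted p = 0.460) in the authors' deposited table, a ratio of 0.710 (0.501 to 1.01). Without the shrinkage these log2 fold changes would be 0.72 and -0.65. For H3K27me3 the authors' deposited table gives 0.00 (SE 0.41) at ctgfa and 0.49 (SE 0.49, unadjusted p = 0.314) at cyr61. The difference between the 2 targets was not tested, and neither passed on its own.

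**Figure D2:**
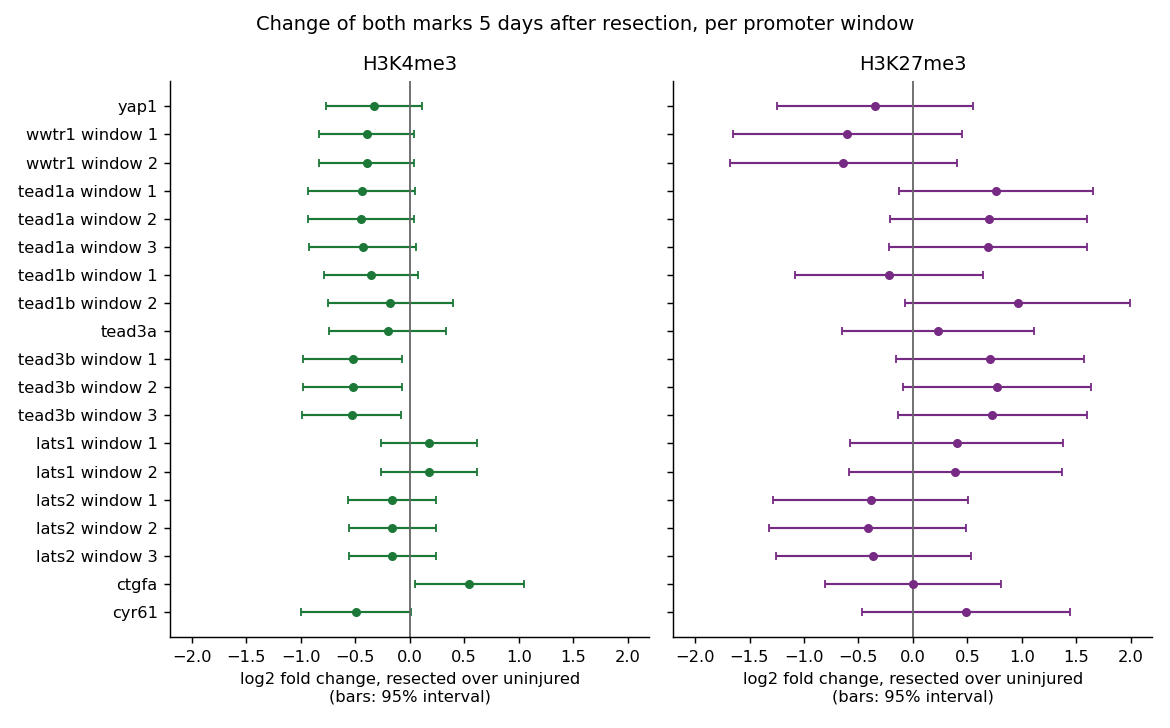
Log2 fold change of H3K4me3 (left) and H3K27me3 (right), resected over uninjured hearts, for each of the 19 windows, with 95% intervals of 1.96 SE before any adjustment. For H3K4me3 only the 3 tead3b windows and ctgfa have intervals that leave out 0, and for H3K27me3 none does.

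Set against all genes, at each gene's window of highest H3K4me3, 8 of the 10 lay below 0 for H3K4me3, where 47.7% of all 24416 genes did and 44.0% of the 15351 with an adjusted p. The median H3K4me3 Wald statistic of the 10 was -1.53, and that of all genes 0.05. Within the distribution of all genes, tead3b was at percentile 3.12, cyr61 at 4.88, wwtr1 at 5.79 and tead1a at 6.23. Then followed tead1b at 7.20, yap1 at 8.91, lats2 at 20.7 and tead3a at 21.8, while lats1 was at 76.4 and ctgfa at 96.6. The median H3K4me3 mean was 315 for the 10 genes and 94.0 for all genes. A ranking among genes of like level was not made. For H3K27me3 in the same windows 6 of 10 lay above 0, where 49.8% of 24075 genes did, and the median Wald statistic was 0.26, beside a median within 0.01 of 0 over all genes. These are descriptions of 10 genes read in the same libraries and chosen with earlier results of these data known, with no test of the set.

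The signs of both marks together split the set. H3K4me3 below 0 with H3K27me3 above 0 was the pattern of tead1a, tead3a, tead3b and cyr61, 40.0% of the 10, beside 25.6% of 24075 genes. Values below 0 for both marks were those of yap1, wwtr1, tead1b and lats2, 40.0% beside 22.1% of genes, and lats1 and ctgfa lay above 0 for both, although ctgfa did so for H3K27me3 by less than 0.001. No gene of the 10 had H3K4me3 above and H3K27me3 below 0, the pattern of 28.0% of genes. With no member past the test for either mark, these signs are not calls.

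**Figure D3:**
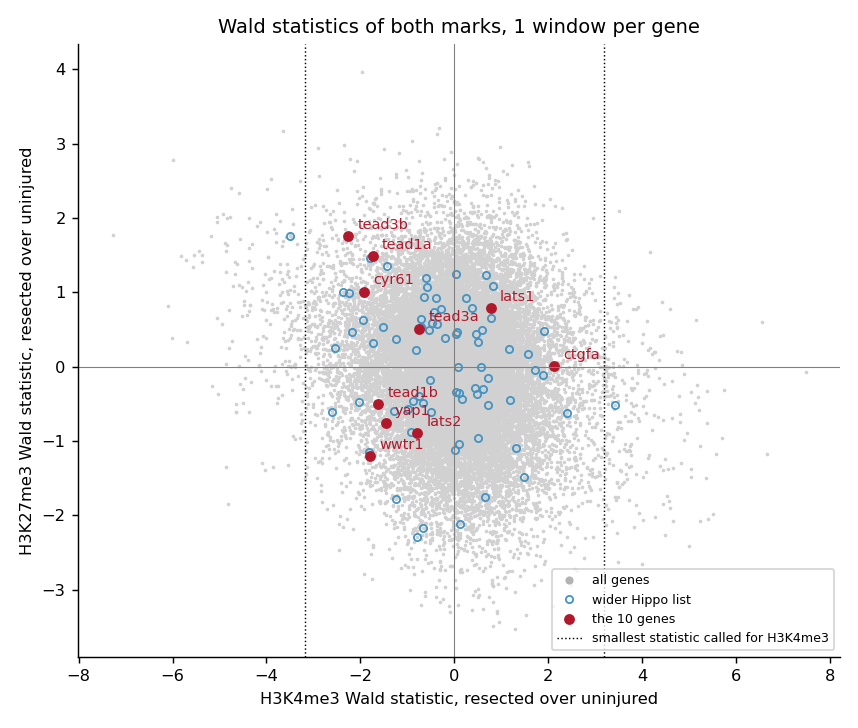
Wald statistic of H3K4me3 (horizontal) against that of H3K27me3 (vertical), resected over uninjured hearts, for all genes at their window of highest H3K4me3 (grey), the wider Hippo list (blue) and the 10 genes (red, named). The 10 genes stay inside the dotted lines at 3.18 in size, the smallest H3K4me3 statistic called, and tead3b, tead1a and cyr61 lie towards the upper left.

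By distance over 4 standardised values, the log2 mean counts and the Wald statistics of both marks, the 3 genes nearest to yap1 were zgc:110410, zhx2a and BX470238.1, at distances of 0.217, 0.302 and 0.314. Those nearest to ctgfa were rnd1b, SLC7A1 (1 of many) and runx2a, a Runt transcription factor gene, at 0.209, 0.257 and 0.283. The median distance was 3.09 to yap1 and 2.53 to ctgfa over all genes. In the authors' deposited tables runx2a had log2 fold changes of 0.54 for H3K4me3 and 0.02 for H3K27me3, beside 0.55 and 0.00 at ctgfa. Near values follow from the choice of these genes, since the distance was computed from both marks.

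A wider list of the pathway, 75 genes among upstream regulators, kinases, partners and targets, had 1 call in each direction for H3K4me3. Another 11 entries of that list, among them the kinase gene stk4, matched no gene and could not be examined. H3K4me3 fell at wwc3, a relative of the LATS-activating scaffold Kibra, and rose at birc5a, which encodes survivin, an inhibitor of apoptosis that also works in the chromosomal passenger complex of dividing cells. The authors' deposited table gives -0.79 for wwc3 (SE 0.23, adjusted p = 0.0227, chromosome 6, 30502183 to 30506182) and 0.90 for birc5a (SE 0.26, adjusted p = 0.0267, chromosome 12, 34332542 to 34336541). Of the 75, 61 had an adjusted p, and 2.92% of all genes with one were called, 1.52% higher and 1.4% lower. The 1 of each among 61 is near that background, and the median Wald statistic of the list was -0.19, beside 0.05 for all genes. At an unadjusted p under 0.05, 2 of the 75 lay above 0 and 7 below. Over all 24416 genes those counts were 1041 and 1125. For wwc3 the authors' deposited table gives an H3K27me3 log2 fold change of 0.80 in the same window (SE 0.46, unadjusted p = 0.0796).

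By role, the membrane and upstream regulators had 1 of 23 lower (wwc3), none higher and 22 not called. Only 17 of the 23 had an adjusted p, so the others could not be called. Their median Wald statistic was -0.67, with 16 of 23 below 0. At an unadjusted p under 0.05 the count was 4 of 23, all below 0, against 8.87% of all genes in either direction. Besides wwc3 these were frmd6, a relative of Drosophila Expanded, and the protocadherin genes dchs1a and dchs1b. Their log2 fold changes were -0.60, -0.52 and -0.58 in the authors' deposited table, with adjusted p-values of 0.191, 0.398 and 0.330. None of the 19 kinases and adaptors, 18 of them with an adjusted p, was called. None had an unadjusted p under 0.05, as 8.87% of all genes did (median Wald statistic 0.10). The Salvador adaptor gene sav1 had -0.34 and the MST kinase gene stk3 0.27 in the authors' deposited table, and the window of stk3 overlaps that of nt5c1aa. None of the 16 inhibitors and partners, 14 of them with an adjusted p, was called either (median 0.04). At an unadjusted p under 0.05 the count was 1, vgll2b, a TEAD cofactor gene, below 0 and without an adjusted p.

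Of 17 other targets of YAP and TAZ, 12 of them with an adjusted p, birc5a rose, none fell and 16 were not called. Their median Wald statistic was 0.18. At an unadjusted p under 0.05, 2 of the 17 lay above 0 and 2 below, against 8.87% of all genes in either direction. For mycb, a Myc gene, the authors' deposited table gives the highest H3K4me3 mean of the list, 1062, and a log2 fold change of -0.56 (adjusted p = 0.171), in a window that overlaps one of CR391940.1. For arhgap29b the log2 fold change was 0.54 (adjusted p = 0.237) in the authors' deposited table, and its window overlaps one of abcd3b. For the close relatives of ctgfa and cyr61, the authors' means for H3K4me3 were 48.5 at ctgfb, 40.6 at cyr61l1 and 107 at cyr61l2. In the authors' deposited table cyr61l2 had -0.63 (adjusted p = 0.251), on the same side of 0 as cyr61, while ctgfb (0.14) and cyr61l1 (0.25) had means too low for an adjusted p. The muscle ankyrin repeat genes ankrd1a and ankrd1b, used as YAP targets in mammals, had authors' means of 36.1 and 41.3 for H3K4me3 and were also without one.

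For H3K27me3, taken for each gene at its window of highest H3K27me3, 0 of the 74 listed genes with a value passed in the authors' deposited table of DESeq2 columns, as did 0% of all genes. At an unadjusted p under 0.05 there were 2, both below 0, against 2.89% of genes in either direction and 1.74% below 0. They were the kinase gene stk38a (-1.07, SE 0.47, p = 0.0218 in the authors' deposited table) and amotl2a, which encodes an angiomotin that binds YAP (-1.03, SE 0.47, p = 0.0295). Next came the tissue factor gene f3b (-0.83, p = 0.0757), the growth factor gene areg (-0.74, p = 0.0785) and frmd6 (0.56, p = 0.135), all from the authors' deposited table. For frmd6 this is not the window of its H3K4me3 value given above, where H3K27me3 had 0.11 (SE 0.44, unadjusted p = 0.802). The list's median Wald statistic was 0.23, beside 0.05 for all genes. At the windows of highest H3K4me3 instead, the count at an unadjusted p under 0.05 was 3, against 3.11% of all genes there, with llgl2, a cell polarity gene, as the third (-1.18, SE 0.56, p = 0.0342 in the authors' deposited table).

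Markers of the cell types in the ventricle were called in the same comparison, where none of the 10 genes was. Of all genes with an adjusted p for H3K4me3, 1.52% were called higher and 1.4% lower. The marker lists were chosen with earlier results of these data known, so their calls are no independent check of the comparison. Of 14 cardiomyocyte markers, 9 fell for H3K4me3, none rose and 5 were not called, among them vmhc and myh6, which had no adjusted p. The median Wald statistic was -4.36, and authors' means ran from 46.5 (myh6) to 237 (myh7ba), so that none was at 0. Of 9 genes listed as endocardial and endothelial markers 4 fell, prox1a, nfatc1, kdrl and kdr (median -2.96). In the authors' deposited table prox1a had an adjusted p of 6.46e-06, and the other called genes of this list had 0.0197 to 0.0458. Among leukocyte markers 7 of 11 rose (median 4.09), with no adjusted p at lyz and mpx, and among epicardial markers 4 of 6 (median 3.88). Among erythroid markers 4 of 8 rose (median 3.15), all globin genes. Their windows overlap, hbaa1 with hbba1 and hbaa2 with hbba2, so the 4 are not separate measurements. Another globin gene ID, also named hbba1, had a log2 fold change of 0.73 and was not called (adjusted p = 0.114 in the authors' deposited table). The erythroid genes gata1a, slc4a1a and alas2 were not called either (adjusted p = 0.481, 0.398 and 0.959 in the authors' deposited table). For H3K27me3 no marker passed. The median Wald statistic was 1.25 for cardiomyocyte, 0.56 for endocardial and endothelial, 0.52 for erythroid, -0.65 for epicardial and -0.98 for leukocyte markers. The epicardial median is over 5 genes, as BNC1 had no value. The summed level of each list per condition was not analysed here, and the part of cell type shares in the values of yap1, wwtr1, the TEAD genes and the targets was not tested.

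**Figure D4:**
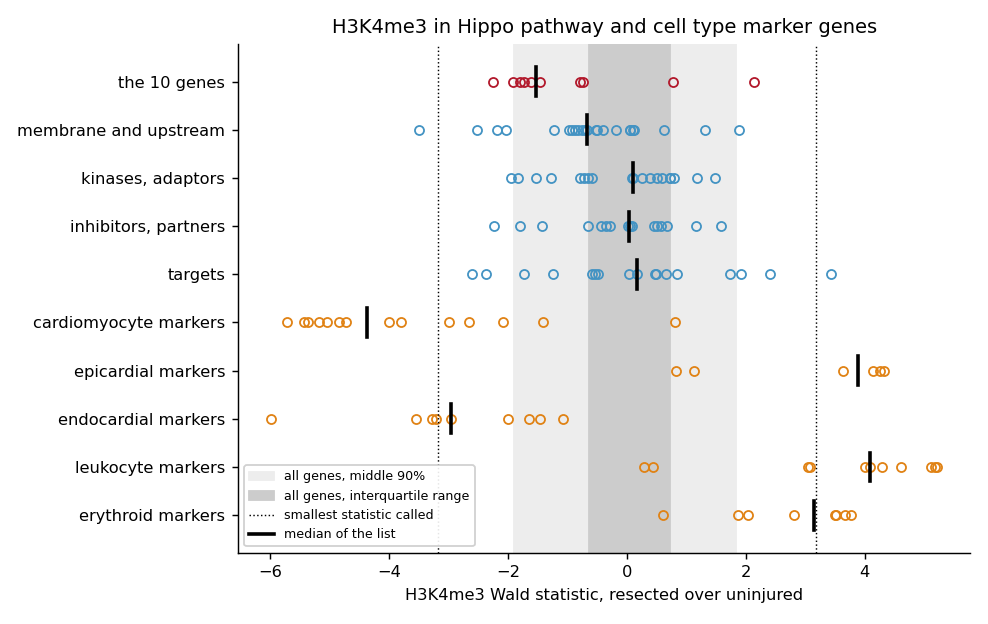
H3K4me3 Wald statistic, resected over uninjured hearts, of each gene (circles) in the 10 genes, the 4 roles of the wider Hippo list and 5 lists of cell type markers, with list medians as black bars, the distribution of all genes in grey and the smallest statistic called (3.18 in size) dotted. The 10 genes have a median of -1.53, beside 0.05 for all genes. The marker medians are -4.36 (cardiomyocyte), -2.96 (endocardial and endothelial), 3.15 (erythroid), 3.88 (epicardial) and 4.09 (leukocyte). The marker lists were chosen with earlier results of these data known.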

How the data were processed

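Per the labels' protocols, cells of the apical ventricle strained on a mesh were fixed, sonicated and immunoprecipitated. Tools in the submitters' processing notes, listed there with no role, are DESeq2, MACS2, the aligners Bowtie2 2.3.2 and BWA, and Picard 2.8.1, bedtools 2.26.0 and SAMtools. Per the file headers, each deposited table gives per window the authors' signal (a mean of normalised counts), the log2 fold change (resected over uninjured hearts) with its SE on the log2 scale, the Wald statistic (a score), the p-value and the adjusted p-value. The input DNA sample was not used here. The sources used here give no depth per library, and the mean per window, being of normalised counts, does not give it either.

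From these, 95% intervals (1.96 SE), ratios, percentiles and counts were computed with Python 3.11.15, pandas 2.3.3 and numpy 2.4.6. The edgeR test planned for counts per library could not be run on such tables, so the authors' test was used, as also planned. Genes were represented by the window with the highest mean of the mark, or of H3K4me3 where marks were compared, and mitochondrial windows were left out of genes. The prior on H3K4me3 changes was taken from the ceiling of the SEs (0.301, the value reached under a normal prior of SD 0.603, log2 scale). The calculations of the Benjamini-Hochberg adjustment and of the undoing of the prior were checked on simulated data. Those data were made with such a prior, so they cannot show whether the authors' values carry it or how wide it is. The text names all windows of the 10 genes, the called genes of the wider list or, with fewer than 5 called, the 5 with the smallest p, and the 3 genes nearest to yap1 and to ctgfa. Other genes of the wider list and the marker lists were named after their values were seen. Of 88 entries of the wider list, 74 matched a symbol of the tables, 3 a gene name table and 11 none, giving 75 genes. The 10 genes and all lists were chosen with earlier results of these data known. Promoter sequences were not used here.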

Additional observations from a re-analysis of the deposited data

How the results depend on the processing

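No window of the 10 genes was called for either mark with no filter on low means, with 1 window per gene, with a mean of at least 10, or at adjusted p under 0.1. With a mean of at least 50, 18 of 19 windows could be tested for H3K4me3 but only 5, of 3 genes (ctgfa, tead1b and lats2), for H3K27me3, and none was called. The smallest adjusted p from these alternatives at a gene's window of highest H3K4me3 was 0.289 for H3K4me3. It came from tead3b with a mean of at least 50, a cut close to the authors' lowest mean with an adjusted p, 51.8. At that window the Benjamini-Hochberg adjusted p was 0.294 in the authors' deposited table. It was 0.416 with no filter, 0.394 with 1 window per gene and 0.415 with a mean of at least 10. These settings were thus stricter there and say little about stability. An adjusted p under 0.01 and the undoing of the H3K4me3 prior could add no call by their construction, so they say nothing about stability. The same holds for members at adjusted p under 0.1, as their smallest was 0.277 for H3K4me3 and 0.9999 for H3K27me3. For H3K27me3, dropping the filter repeated the same analysis, since all 41673 windows with a p had an adjusted p. In the wider list wwc3 and birc5a make the H3K4me3 count of 2, which was 0 at adjusted p under 0.01 and 2 with no filter, 1 window per gene, a mean of at least 10 or 50, adjusted p under 0.1 and the window with the smallest p, while the H3K27me3 count was 0 under each of these. No paired analysis was possible because the tables hold no values per library, and leaving out a replicate was not run for the same reason. SEs of the 19 windows were 0.41 to 0.54 for H3K27me3 and 0.20 to 0.29 for H3K4me3, but a prior appears on H3K4me3 only, so the precision of the marks cannot be compared by them. A p that misses the threshold does not show that a promoter was unaltered.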
